A study of Homo sapiens with 26 samples.

Results

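Integrins are the main receptors by which cells hold on to matrix and to each other, and laminins are a large part of the matrix they hold on to. The genes described here are the integrin alpha subunits, the integrin beta subunits and the laminin chains, taken from the expression table by their gene symbols and by no measured value. Of 63129 rows in the table, 40 carried such a symbol. They stand for 38 genes, since LAMA4 and ITGA10 each have a copy on a patch scaffold that is listed at 0 in all libraries. These are 18 alpha subunits, 8 beta subunits and 12 laminin chains. RNA sequencing had been done on 26 libraries, 2 in each of 13 groups, from A375, an established melanoma line, and NOMO-1, an established acute myeloid leukaemia line.

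The comparison of interest was between cells derived to tolerate inhibition of BET bromodomain proteins, which read acetylated chromatin at active genes, and the parental cells of the same line. The tolerant A375 cells are clones 1 and 4, each a single derived clone, and the tolerant NOMO-1 cells, which the titles call resistant, are 1 population that a label field names a clone. Clone 1, clone 4 and parental A375 cells were each taken after 6 h with 1 uM CPI203, a BET bromodomain inhibitor, after 6 h with DMSO, and untreated at 0 h. Tolerant and parental NOMO-1 cells were taken after 24 h with 1 uM CPI203 or with DMSO. No genotype or transgene is given for any group. The 4 untreated clone libraries carry a parental label in 1 field, and their titles, which name the clone, were followed.

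An integrin is a pair of 1 alpha and 1 beta subunit, and the pair decides the ligand. Beta 1 pairs with most alpha subunits, while beta 4 pairs with alpha 6 alone and anchors epithelial cells to laminin through hemidesmosomes. Beta 3 pairs with alpha V or, in platelets, with alpha IIb, and binds ligands with an RGD motif. Beta 2 and beta 7 belong to leukocytes. A laminin is a trimer of 1 alpha, 1 beta and 1 gamma chain, laid down in basement membranes. Melanoma cells are known to carry alpha V beta 3 as they become invasive, and myeloid cells to use alpha L beta 2 and alpha M beta 2 to bind ICAM proteins and complement.

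Promoter sequences of 7 members that the results turn on follow, as the 250 bases before the gene start in RefSeq (GRCh38.p14), written along the gene's own strand. Capitals mark matches, on either strand, to the letters TGANTCA (the AP-1 motif), CACGTG (an E-box), GGGCGG (a GC box) or GAGGAA (a PU.1 core); no match printed overlaps another. LAMB3 and LAMA3 are the members with TGANTCA, which 6.57% of 35116 RefSeq promoters of that length hold. LAMB3 lies at chr1:209651375-209651624 on the minus strand, the first of its 3 listed starts, and LAMA3 at chr18:23872770-23873019 on the plus strand.
LAMB3: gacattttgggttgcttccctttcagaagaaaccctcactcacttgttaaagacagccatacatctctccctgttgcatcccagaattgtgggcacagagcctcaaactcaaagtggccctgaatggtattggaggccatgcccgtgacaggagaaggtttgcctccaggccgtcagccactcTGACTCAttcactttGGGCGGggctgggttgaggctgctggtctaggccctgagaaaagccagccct
LAMA3: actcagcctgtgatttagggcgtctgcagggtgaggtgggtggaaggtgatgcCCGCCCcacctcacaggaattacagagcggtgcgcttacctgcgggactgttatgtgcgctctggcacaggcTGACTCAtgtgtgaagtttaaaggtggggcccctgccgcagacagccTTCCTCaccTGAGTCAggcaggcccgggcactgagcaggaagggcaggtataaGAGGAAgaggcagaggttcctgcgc
ITGA1 and ITGA2 are neighbours on chromosome 5. ITGA1 fell in the A375 clones, and ITGA2 was not called there with all libraries. The ITGA1 window lies at chr5:52787666-52787915 and the ITGA2 window at chr5:52989102-52989351, both on the plus strand.
ITGA1: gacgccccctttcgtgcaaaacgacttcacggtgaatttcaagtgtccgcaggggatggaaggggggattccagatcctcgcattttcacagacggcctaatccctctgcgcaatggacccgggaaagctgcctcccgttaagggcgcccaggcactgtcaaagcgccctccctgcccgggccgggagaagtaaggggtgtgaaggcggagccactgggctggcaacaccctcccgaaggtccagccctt
ITGA2: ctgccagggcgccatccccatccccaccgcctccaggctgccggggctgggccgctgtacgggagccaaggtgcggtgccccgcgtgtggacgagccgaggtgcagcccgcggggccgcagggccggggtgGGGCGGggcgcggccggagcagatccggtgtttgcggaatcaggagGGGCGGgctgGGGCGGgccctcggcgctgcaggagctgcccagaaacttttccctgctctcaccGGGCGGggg
LAMA4, the laminin alpha chain with the highest level in A375 cells, lies at chr6:112254568-112254817 on the minus strand.
LAMA4: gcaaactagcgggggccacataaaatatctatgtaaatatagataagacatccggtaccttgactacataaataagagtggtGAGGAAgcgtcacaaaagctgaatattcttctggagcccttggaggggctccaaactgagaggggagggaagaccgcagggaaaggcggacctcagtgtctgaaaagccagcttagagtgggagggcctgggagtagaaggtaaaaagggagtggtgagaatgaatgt
LAMC1 and ITGAM moved in NOMO-1 cells, and lie at chr1:183023170-183023419 and chr16:31259725-31259974, both on the plus strand.
LAMC1: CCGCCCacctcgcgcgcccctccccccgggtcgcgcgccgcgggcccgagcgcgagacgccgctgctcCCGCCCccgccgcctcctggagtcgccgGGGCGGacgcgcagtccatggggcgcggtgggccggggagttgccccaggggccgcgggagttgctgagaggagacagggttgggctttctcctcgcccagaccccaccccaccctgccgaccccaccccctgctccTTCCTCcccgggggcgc
ITGAM: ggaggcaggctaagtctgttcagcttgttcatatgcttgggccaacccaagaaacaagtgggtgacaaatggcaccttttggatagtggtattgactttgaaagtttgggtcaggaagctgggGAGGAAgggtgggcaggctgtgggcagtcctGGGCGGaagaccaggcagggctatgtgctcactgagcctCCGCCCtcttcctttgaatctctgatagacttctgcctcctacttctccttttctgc

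RefSeq promoters were found for 26 of the 38 members. TGANTCA was in 2 of these, CACGTG in 1 (ITGA6), GGGCGG in 14 and GAGGAA in 11. Over all promoters CACGTG was in 6.34%, GGGCGG in 42.6% and GAGGAA in 23.6%. A member counts if any of its listed promoters, 33 in all, holds the letters, while these shares are per promoter. The 2 are therefore not like for like. ITGA1 held none of the 4 motifs in this window, while ITGA2 held GGGCGG 4 times. A match is a string of letters and does not show that a factor binds there. Not matched were ITGA3, ITGA7, ITGA9, ITGAD, ITGAL, ITGAX, ITGB2, ITGB3, ITGB4, LAMA1 and LAMC3, among others.

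Values are FPKM, fragments scaled to transcript length and to all mapped fragments, so that levels of different genes can be set side by side; read counts were not used, and the depth of the libraries is not known. Members together held 965 to 1705 FPKM in an A375 library, of a total of 501933 to 637916, and 389 to 669 FPKM in a NOMO-1 library, of a total of 417391 to 488682. Replicates lay further apart in 3 A375 groups than in the rest, by a median of 0.302 (clone 4 DMSO), 0.238 (clone 4 CPI203) and 0.230 (parental DMSO) on the log2 scale, against 0.0636 to 0.120 elsewhere in A375 cells. The libraries that stand apart there are replicate 1 of parental DMSO and of clone 4 DMSO, and replicate 2 of clone 4 CPI203. Leaving out these 3 leaves 1 library in each of those groups, whose spread then comes from other groups alone. Without the 3, sizes of change alone are given for comparisons with those groups. The same limit holds for a group that loses 1 library in the fits below that leave out 1. Nothing in the labels says that the replicates came from separate cultures. A p-value here rests on the spread between the 2 libraries of each group, shared over all groups of the line. Libraries that stand apart in 1 group therefore also weigh on comparisons of other groups. That spread may be technical. Of 8 melanocyte markers, SOX10, S100B and MITF averaged 1 FPKM or more in A375 cells and MLANA, TYR, DCT and TYRP1 never reached 1 FPKM; PMEL reached it in untreated clone 4 alone. Of 8 myeloid markers, all but CD14 averaged 1 FPKM or more in NOMO-1 cells.

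The 2 lines held different integrins. Members were tested in a line where 2 or more of its libraries reached 1 FPKM, which held for 26 members in A375 cells and 22 in NOMO-1 cells. Of these, 15 were tested in both lines, 11 in A375 cells only and 7 in NOMO-1 cells only. ITGA8, ITGAD, ITGB6, LAMA1 and LAMB4 were tested in neither, and none of them exceeded 0.288 FPKM in any library. A375 cells held the alpha subunits ITGA1 and ITGA2, which bind collagen, and the chain LAMA4, which was listed at 0 in all 8 NOMO-1 libraries. NOMO-1 cells held the leukocyte subunits ITGAL, ITGAM, ITGB2 and ITGB7, of which none exceeded 0.681 FPKM in A375 cells. Lines were compared in levels alone, since line and time of harvest cannot be told apart.

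The largest difference between the A375 clones and parental cells was in ITGB4, the beta 4 subunit (ENSG00000132470, hg19 chr17 73717407 to 73753899). After DMSO it stood at 65.5 and 72.7 FPKM in clone 1 and 109 and 81.6 FPKM in clone 4, against 0.643 and 0.489 FPKM in parental cells. Untreated, it stood at 62.5 and 74.7 FPKM in clone 1 and 49.1 and 52.7 FPKM in clone 4, against 0.795 and 0.879 FPKM in parental cells. Every clone library was far above every parental library, and no parental library reached 1 FPKM. Changes from here on are differences of log2(FPKM + 1), with the standard error that limma gives them and with Benjamini-Hochberg adjustment over all genes tested. In DMSO, ITGB4 rose by 5.48 ± 0.16 in clone 1 (adjusted p = 1.32e-10) and by 5.93 ± 0.16 in clone 4 (adjusted p = 5.37e-11). Untreated, it rose by 5.24 ± 0.16 in clone 1 (adjusted p = 6.2e-11) and by 4.82 ± 0.16 in clone 4 (adjusted p = 9.98e-11). The mean FPKM was 122 and 169 times the parental mean in DMSO, and 81.9 and 60.8 times untreated, in clones 1 and 4. Both clones are set against the same parental libraries in each condition, so their differences are not independent of each other, while the DMSO and untreated comparisons share no library.

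**Figure D1:**
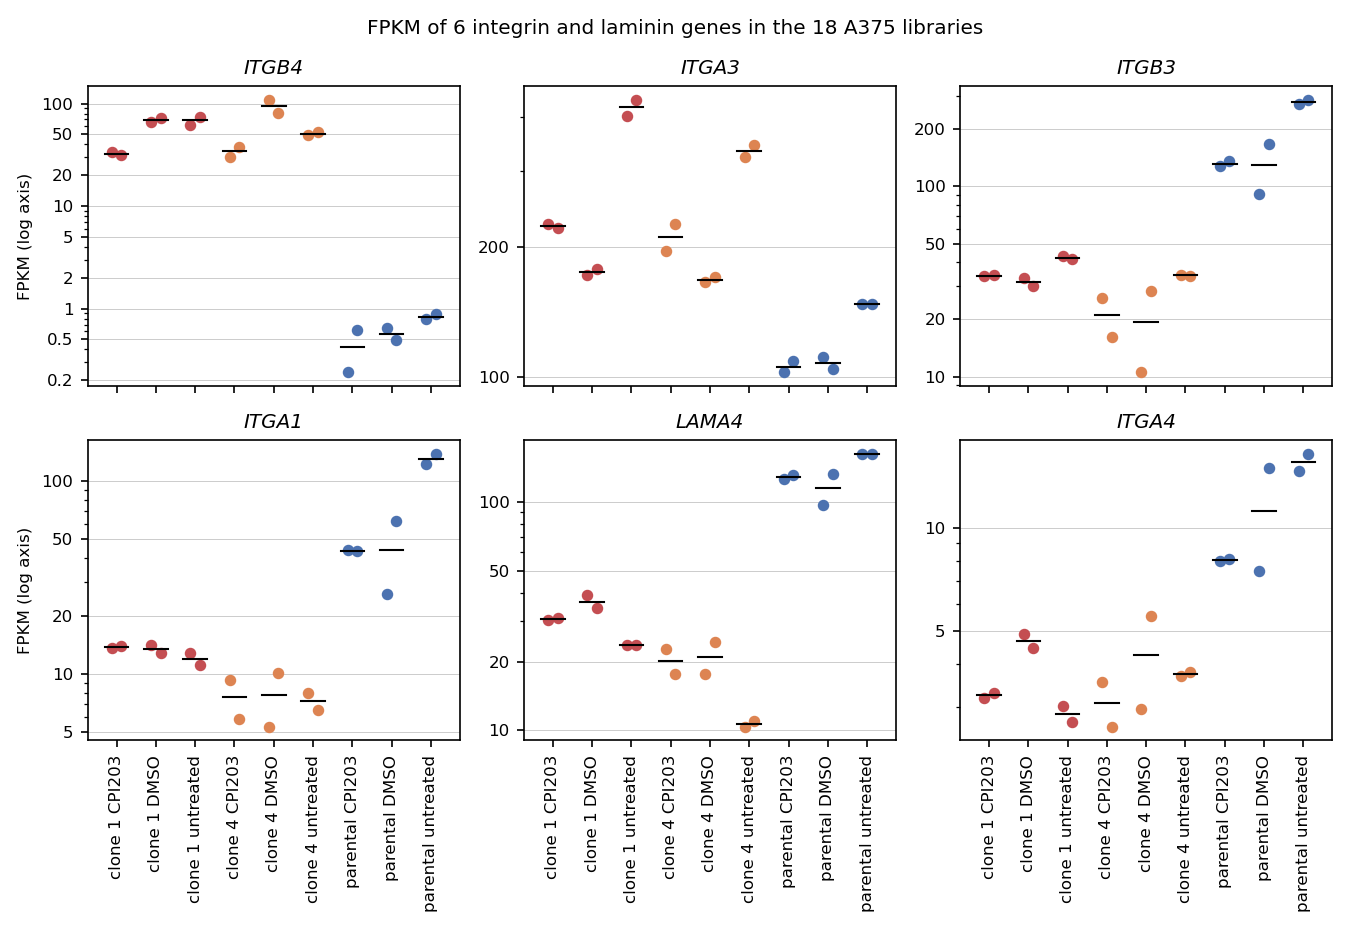
FPKM on a log axis of ITGB4, ITGA3, ITGB3, ITGA1, LAMA4 and ITGA4 in the 18 A375 libraries, by cell population and treatment; dots are libraries and lines are means of 2. ITGB4 lies between 30.2 and 109 FPKM in the clones and under 1 FPKM in parental cells, while ITGB3, ITGA1, LAMA4 and ITGA4 are lower in every clone library than in any parental library.

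ITGA3, the alpha 3 subunit that with beta 1 binds laminins, rose along with it. After DMSO it stood at 171 and 177 FPKM in clone 1 and 166 and 169.8 FPKM in clone 4, against 111 and 104 FPKM in parental cells. Untreated, it stood at 402 and 438 FPKM in clone 1 and 322 and 344 FPKM in clone 4, against 147 FPKM in both parental libraries. The groups did not overlap in either condition. Here and below, the share of all genes whose groups of 2 libraries did not overlap was not counted. The rise was 0.69 ± 0.09 in clone 1 (adjusted p = 6.5e-05) and 0.64 ± 0.09 in clone 4 (adjusted p = 0.000105) in DMSO. It was 1.505 ± 0.09 (adjusted p = 1.7e-08) and 1.17 ± 0.09 (adjusted p = 1.73e-07) untreated.

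ITGA6, the partner of beta 4, was abundant in all A375 cells and was not called different. It stood at 139 and 122 FPKM in clone 1 and 54.7 and 86.3 FPKM in clone 4 after DMSO, against 76.1 and 104 FPKM in parental cells. The difference was 0.54 ± 0.20 in clone 1 (adjusted p = 0.0636) and -0.37 in clone 4 (adjusted p = 0.177). The ratio of ITGB4 to ITGA6 FPKM was 0.316 to 2.001 in the clone libraries and 0.00275 to 0.0124 in the parental libraries. ITGA7, a laminin-binding subunit of muscle, was low and fell in both clones. In DMSO it stood at 1.34 and 1.51 FPKM in clone 1 and 2.29 and 2.75 FPKM in clone 4, against 4.68 and 4.04 FPKM in parental cells. The fall was -1.14 ± 0.14 (adjusted p = 4.45e-05) in clone 1 and -0.61 ± 0.14 (adjusted p = 0.00485) in clone 4. Without the 3 libraries that stand apart, the ITGA6 difference in DMSO was 0.32 in clone 1, with 1 parental library left. Untreated, ITGA6 was then called higher in clone 1 (0.23, adjusted p = 0.0114) and lower in clone 4 (-0.40, adjusted p = 0.000347).

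Among the collagen receptors, ITGA1, the alpha 1 subunit (ENSG00000213949, hg19 chr5 52083729 to 52255040), fell in both clones. After DMSO it stood at 14.0 and 12.8 FPKM in clone 1 and 5.33 and 10.2 FPKM in clone 4, against 25.96 and 61.6 FPKM in parental cells. Untreated, it stood at 12.9 and 11.1 FPKM in clone 1 and 7.92 and 6.50 FPKM in clone 4, against 122 and 138 FPKM in parental cells. The groups did not overlap, though the parental DMSO libraries were far apart. The fall was -1.51 ± 0.33 in clone 1 (adjusted p = 0.00456) and -2.29 ± 0.33 in clone 4 (adjusted p = 0.000165) in DMSO, and -3.33 ± 0.33 (adjusted p = 2.88e-06) and -4.00 ± 0.33 (adjusted p = 4.72e-07) untreated. ITGA2, the alpha 2 subunit encoded 30.1 kb away, was not called. It stood between 7.79 and 15.2 FPKM in the clones after DMSO or untreated, against 10.3 to 21.1 FPKM in parental cells. Without the 3 libraries that stand apart, the ITGA2 difference in DMSO was -0.65 in clone 1 and -0.45 in clone 4, with 1 parental and 1 clone 4 library left. ITGA10, a further collagen-binding subunit, stood at 0.160 to 0.310 FPKM in untreated clones, against 5.28 and 5.90 FPKM in untreated parental cells. That fall was -2.38 ± 0.11 in clone 1 (adjusted p = 1.99e-09) and -2.43 ± 0.11 in clone 4 (adjusted p = 1.34e-09); in DMSO ITGA10 was not called, at 1.16 to 1.62 FPKM in clones and 1.51 to 1.91 FPKM in parental cells.

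Of the RGD-binding subunits, ITGB3, the beta 3 subunit (ENSG00000259207, hg19 chr17 45331211 to 45421658), fell the most. After DMSO it stood at 33.2 and 30.0 FPKM in clone 1 and 10.5 and 28.3 FPKM in clone 4, against 91.0 and 167 FPKM in parental cells. Untreated, it stood at 42.8 and 41.5 FPKM in clone 1 and 34.4 and 34.0 FPKM in clone 4, against 272 and 286 FPKM in parental cells. All clone libraries were below all parental libraries. The fall was -1.93 ± 0.35 in clone 1 (adjusted p = 0.00125) and -2.76 ± 0.35 in clone 4 (adjusted p = 5.61e-05) in DMSO, and -2.70 ± 0.35 (adjusted p = 3.54e-05) and -2.99 ± 0.35 (adjusted p = 1.26e-05) untreated. ITGAV, which pairs with beta 3, was not called with all libraries. It stood at 8.67 to 24.9 FPKM in DMSO or untreated clones and 10.0 to 27.8 FPKM in such parental cells. Without the 3 libraries that stand apart, ITGAV was called lower in untreated clone 4 (-0.45) and was not called in untreated clone 1. The ratio of ITGB3 to ITGAV FPKM was 1.22 to 1.99 in clone libraries and 6.45 to 11.8 in parental libraries, with no overlap.

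ITGA5, the fibronectin receptor's alpha subunit, fell in 3 of the 4 comparisons. Untreated, it stood at 72.8 and 73.7 FPKM in clone 1 and 53.6 and 58.4 FPKM in clone 4, against 100.1 and 96.0 FPKM in parental cells. The fall was -0.42 ± 0.09 in clone 1 (adjusted p = 0.00231) and -0.80 ± 0.09 in clone 4 (adjusted p = 1.05e-05). In DMSO it was -0.39 ± 0.09 in clone 1 (adjusted p = 0.00682), a call lost without parental DMSO replicate 1 (-0.34, adjusted p = 0.0555) or clone 1 DMSO replicate 1 (-0.38, adjusted p = 0.0525). ITGB5, a beta subunit that pairs with alpha V and binds vitronectin, changed in opposite directions by condition. In clone 1 it stood at 128 and 138 FPKM after DMSO, against 93.6 and 108 FPKM in parental cells, and at 84.7 and 93.3 FPKM untreated, against 126 and 119.6 FPKM in parental cells. The change was 0.40 ± 0.11 in DMSO (adjusted p = 0.0188) and -0.46 ± 0.11 untreated (adjusted p = 0.00415). The DMSO call was lost without parental DMSO replicate 1 (0.30, adjusted p = 0.146) or clone 1 DMSO replicate 2 (0.35, adjusted p = 0.129). ITGB8, the beta 8 subunit, spread widely, at 5.67 and 21.0 FPKM in parental DMSO cells. It fell in untreated clone 4, at 6.95 and 6.23 FPKM against 19.9 and 25.4 FPKM in parental cells (-1.63 ± 0.53, adjusted p = 0.0208), a call lost without any 1 of these 4 libraries (adjusted p = 0.0517 to 0.106).

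ITGA4 and ITGA9, a related pair of alpha subunits that bind VCAM-1, fibronectin and tenascin with beta 1, were lower in the clones. ITGA4 stood at 3.03 and 2.71 FPKM in clone 1 and 3.68 and 3.79 FPKM in clone 4 untreated, against 14.7 and 16.4 FPKM in parental cells. The fall was -2.09 ± 0.26 in clone 1 (adjusted p = 1.97e-05) and -1.80 ± 0.26 in clone 4 (adjusted p = 6.69e-05). In DMSO it was -1.03 ± 0.26 in clone 1 (adjusted p = 0.00992) and -1.19 ± 0.26 in clone 4 (adjusted p = 0.00335). The clone 1 DMSO call was lost without parental DMSO replicate 2 (-0.58, adjusted p = 0.0885) or clone 1 DMSO replicate 2 (-0.97, adjusted p = 0.0652). ITGA9 (ENSG00000144668, hg19 chr3 37493605 to 37865005) was at most 0.114 FPKM in every clone library, against 3.51 and 4.90 FPKM in parental DMSO cells and 9.15 and 9.56 FPKM in untreated parental cells. The fall was -2.29 ± 0.11 in clone 1 (adjusted p = 5.94e-09) and -2.33 ± 0.11 in clone 4 (adjusted p = 3.76e-09) in DMSO, and -3.30 ± 0.11 (adjusted p = 7.73e-11) and -3.36 ± 0.11 (adjusted p = 5.97e-11) untreated. ITGB1, their partner and the most widely used beta subunit, was not called in any of the 4 comparisons with all libraries. It stood at 76.6 to 206 FPKM in DMSO or untreated clones and 89.1 to 157 FPKM in such parental cells. Untreated, it averaged 196 FPKM in clone 1 and 169 FPKM in clone 4, against 153 FPKM in parental cells. Without the 3 libraries that stand apart, ITGB1 was called higher untreated in clone 1 (0.35) and clone 4 (0.14).

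As shares of the summed FPKM of the 8 beta subunits, ITGB4 made up 8.71% to 36.6% in the 12 clone libraries and 0.0598% to 0.229% in the 6 parental A375 libraries. ITGB3 made up 3.52% to 10.5% in clones and 32.0% to 48.5% in parental cells. ITGB1, at 25.6% to 51.9% in clones and 26.3% to 39.2% in parental cells, and ITGB5, at 20.8% to 36.0% and 20.3% to 33.4%, overlapped. Among alpha subunits ITGA3 took 39.4% to 67.0% in clones and 25.0% to 32.0% in parental cells, and ITGA1 took 1.26% to 3.22% in clones and 7.496% to 25.2% in parental cells. These shares describe RNA per transcript length and not protein pairs. In bulk RNA, a smaller share of cells that express a gene and less of its RNA in each cell cannot be told apart.

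**Figure D2:**
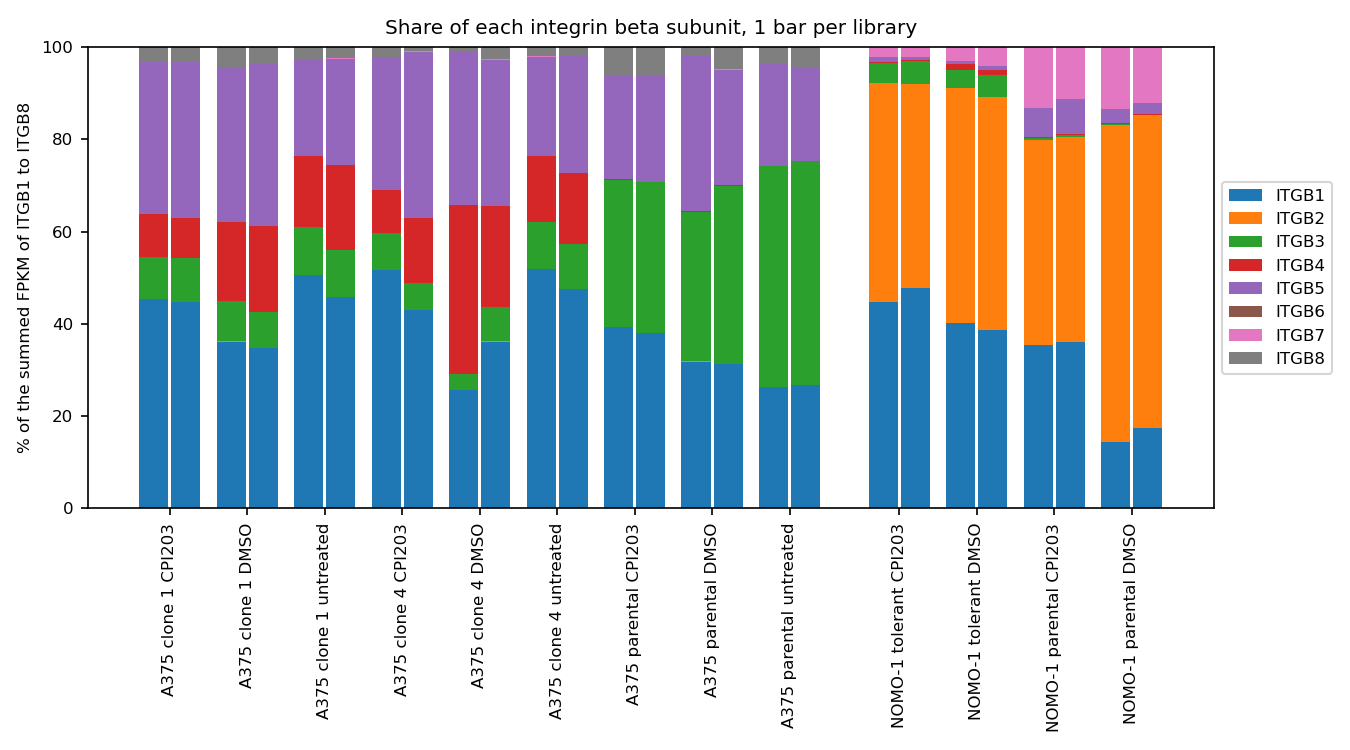
Share in percent of the summed FPKM of ITGB1 to ITGB8 held by each beta subunit, 1 stacked bar for each of the 26 libraries. ITGB4 takes 8.71% to 36.6% in the clone libraries, ITGB3 takes 32.0% to 48.5% in the parental A375 libraries, and ITGB2 takes 44.2% or more in every NOMO-1 library.

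Of the laminin alpha chains, LAMA4 (ENSG00000112769, hg19 chr6 112429962 to 112576141), which is typical of vessels and mesenchymal cells, fell in both clones. After DMSO it stood at 38.9 and 34.1 FPKM in clone 1 and 17.7 and 24.4 FPKM in clone 4, against 96.5 and 132 FPKM in parental cells. Untreated, it stood at 23.7 FPKM in both clone 1 libraries and 10.4 and 11.0 FPKM in clone 4, against 162 FPKM in both parental libraries. Clone and parental values did not overlap. The fall was -1.61 ± 0.16 in clone 1 (adjusted p = 8.03e-06) and -2.39 ± 0.16 in clone 4 (adjusted p = 1.54e-07) in DMSO, and -2.72 ± 0.16 (adjusted p = 1.96e-08) and -3.80 ± 0.16 (adjusted p = 7.08e-10) untreated. The summed FPKM of the 5 alpha chains was 15.4 to 50.5 in clone libraries and 104.5 to 171.1 in parental libraries. LAMA5, the alpha chain of most adult basement membranes, stood at 3.51 to 17.1 FPKM in the clones and 5.85 to 7.16 FPKM in parental cells. It was called higher in untreated clone 1 (0.87 ± 0.24, adjusted p = 0.00884), and not without clone 1 untreated replicate 2 (0.48, adjusted p = 0.128), which at 17.1 FPKM was above the 9.58 FPKM of the other replicate. LAMA4 took 56.1% to 81.8% of the alpha chain FPKM in clones and 92.4% to 94.8% in parental cells, and LAMA5 took 13.8% to 40.4% in clones and 3.81% to 6.44% in parental cells.

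The abundant beta and gamma chains differed less. LAMB1 stood at 163 and 164 FPKM in clone 1 and 123 and 120.2 FPKM in clone 4 untreated, against 197 and 200.2 FPKM in parental cells. The fall was -0.70 ± 0.09 in clone 4 (adjusted p = 2.25e-05) and -0.28 ± 0.09 in clone 1 (adjusted p = 0.0193), the second lost without any 1 of its 4 libraries (adjusted p = 0.0681 to 0.0933). LAMC1, the common gamma 1 chain, stood at 228 and 217 FPKM in clone 1 and 227 FPKM in both clone 4 libraries untreated, against 142 and 144 FPKM in parental cells. The rise was 0.63 ± 0.22 in clone 1 (adjusted p = 0.0304) and 0.66 ± 0.22 in clone 4 (adjusted p = 0.0232), and both calls were lost without any 1 of their libraries (adjusted p = 0.0836 to 0.118 and 0.0792 to 0.0879) and after quantile normalization (adjusted p = 0.157 and 0.169). Without the 3 libraries that stand apart they were kept (0.63, adjusted p = 3.46e-06, and 0.66, adjusted p = 2.16e-06). The LAMC1 difference in DMSO was then 0.24 in clone 1 and 0.42 in clone 4, with 1 parental and 1 clone 4 library left. LAMB2 was not called with all libraries, at 39.5 to 73.8 FPKM in clones and 36.7 to 58.6 FPKM in parental cells. Without the 3 libraries that stand apart, LAMB2 was called higher in untreated clone 4 (0.24). Its difference in DMSO was then 0.37 in clone 1, with 1 parental library left. LAMB3, a beta chain of epithelial laminin, fell in untreated clones, with 5.13 and 5.36 FPKM in clone 1 and 4.16 and 4.23 FPKM in clone 4, against 8.35 and 8.43 FPKM in parental cells. That fall was -0.59 ± 0.13 (adjusted p = 0.00195) and -0.85 ± 0.13 (adjusted p = 9.9e-05); after DMSO LAMB3 was not called, at 6.15 to 8.67 FPKM in clones and 7.10 to 8.02 FPKM in parental cells. LAMA3, an epithelial alpha chain, never exceeded 0.647 FPKM in clones and 1.30 FPKM in parental cells.

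Of the 26 members tested in A375 cells, 5 rose and 8 fell in clone 1 against parental cells in DMSO, where 25.2% of all genes tested were called, 11.7% higher and 13.5% lower. In clone 4, 4 rose and 8 fell in DMSO, where 31.4% of genes were called, 15.4% higher and 16% lower. Untreated, 4 rose and 13 fell in clone 1, where 48.1% of genes were called, 17.1% higher and 31% lower. In untreated clone 4, 4 rose and 14 fell, where 51.1% of genes were called, 20.7% higher and 30.4% lower. The members' median log2 difference was -0.10 and -0.22 in DMSO and -0.35 and -0.66 untreated for clones 1 and 4, against 0.02, 0.01, -0.12 and -0.08 over all genes. After quantile normalization the median over all genes untreated was 0.03 for clone 1 and 0.05 for clone 4, and 3 members rose and 13 fell in clone 1 and 4 rose and 14 fell in clone 4. Among all genes called, 35.5% were higher in untreated clone 1 and 40.4% in untreated clone 4, and 50.4% and 51.8% after that normalization. ITGA9, ITGAX and LAMA3 reached 1 FPKM in parental cells alone, and ITGB4 in the clones alone. These could enter the test only through the group where they are high, so their place in the counts is in part set by the filter. With no filter on low values, 3 members passed in DMSO for clone 1 and 6 for clone 4, and 10 untreated for each. Of all genes then tested, 1.58% and 2.27% were called in DMSO and 5.41% and 6.02% untreated, for clones 1 and 4. That fit takes in all 63129 rows, of which 38375 were above 0 FPKM in any A375 library. With these 38375 rows alone, 12.3% and 15.1% were called in DMSO and 24.6% and 26.3% untreated. Without the 3 libraries that stand apart, 20 members passed untreated for clone 1 and 23 for clone 4, with 65.5% and 67.8% of genes called. Counts in DMSO are not given for that setting, since 1 parental and 1 clone 4 library are left.

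Members that moved the same way in DMSO and untreated were 10 of 26 in each clone, which is 38.5%, against 19.2% of all genes in clone 1 and 24.3% in clone 4. In both clones these included ITGB4 and ITGA3 as the only members higher in both conditions. In both clones the members lower in both conditions included LAMA4, ITGA1, ITGB3, ITGA4, ITGA7, ITGA9 and ITGAX, with ITGA5 in clone 1 and LAMA3 in clone 4 in addition. ITGAX, a leukocyte subunit, was at most 0.0972 FPKM in clones, against 2.28 and 2.55 FPKM in untreated parental cells. The LAMA3 call in DMSO (-0.33 ± 0.12, adjusted p = 0.0493) was lost without parental DMSO replicate 2 (-0.19, adjusted p = 0.349), clone 4 DMSO replicate 1 (-0.36, adjusted p = 0.101) or replicate 2 (-0.30, adjusted p = 0.125). LAMA2 was called higher in DMSO at levels under 1 FPKM (0.27 ± 0.09, adjusted p = 0.0444 in clone 1, and 0.29 ± 0.09, adjusted p = 0.0297 in clone 4) and not untreated. Those LAMA2 calls were lost without parental DMSO replicate 1 (0.18, adjusted p = 0.277, and 0.20, adjusted p = 0.169), clone 1 DMSO replicate 1 (0.28, adjusted p = 0.136) or 2 (0.26, adjusted p = 0.162), or clone 4 DMSO replicate 2 (0.22, adjusted p = 0.123). ITGAE, a subunit of intraepithelial lymphocytes, was called higher in untreated clone 4, at 21.1 and 20.3 FPKM against 12.8 and 12.5 FPKM in parental cells (0.67 ± 0.20, adjusted p = 0.0136), and not without parental replicate 1 (adjusted p = 0.0531), parental replicate 2 (adjusted p = 0.0618) or clone 4 replicate 1 (adjusted p = 0.0657).

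**Figure D3:**
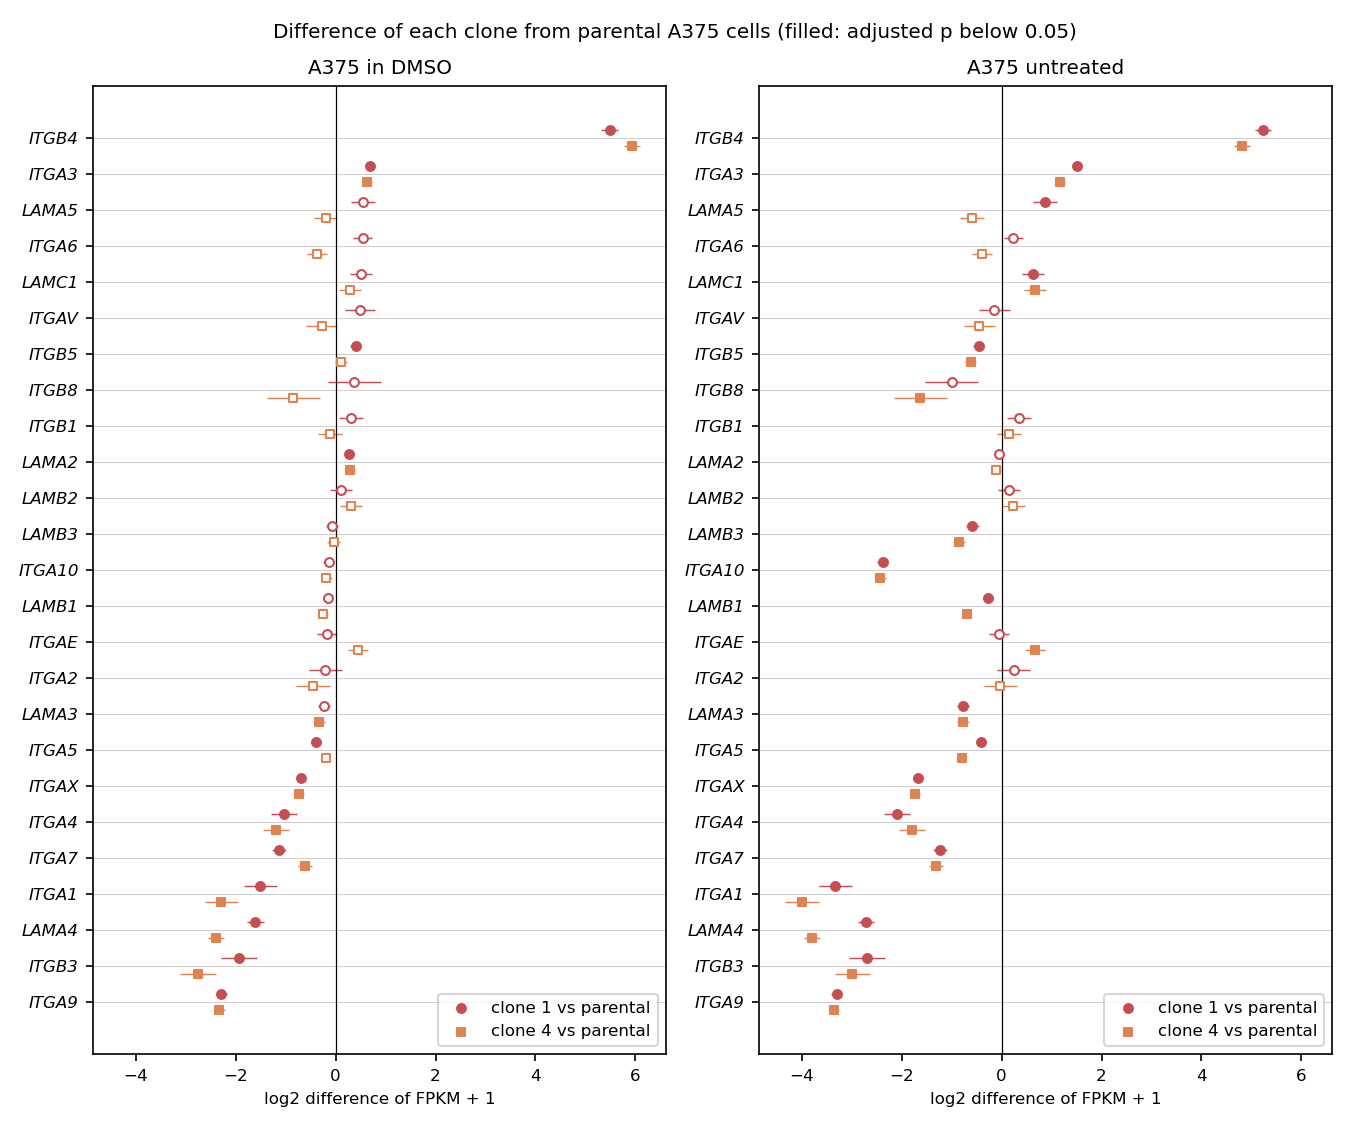
Log2 difference of FPKM + 1 with its standard error for 25 of the 26 members tested in A375 cells, in clone 1 (circles) and clone 4 (squares) against parental cells, in DMSO on the left and untreated on the right; filled symbols passed an adjusted p below 0.05. ITGB4 stands alone above 4 in all 4 comparisons, and LAMA4, ITGA1, ITGB3, ITGA4 and ITGA9 lie below 0 in all 4.

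Parental cells themselves differed between 6 h of DMSO and 0 h untreated, in a comparison added after the values were seen. Of 26 members, 1 was higher and 11 lower in DMSO, with 22.5% of genes called, 12.2% higher and 10.3% lower. ITGB3 was lower in DMSO, at 91.0 and 167 FPKM against 272 and 286 FPKM untreated (-1.17 ± 0.35, adjusted p = 0.0316), and ITGA1 was lower at 25.96 and 61.6 FPKM against 122 and 138 FPKM (-1.67 ± 0.33, adjusted p = 0.00367). ITGA10 was lower at 1.51 and 1.91 FPKM against 5.28 and 5.90 FPKM (-1.28 ± 0.11, adjusted p = 1.46e-05), and ITGA9 was lower (-1.005 ± 0.11, adjusted p = 6.41e-05). The ITGB3 call was lost without parental DMSO replicate 1 (-0.74, adjusted p = 0.263). The count was 7 without either untreated parental library. Time and DMSO cannot be told apart here.

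Markers of other cell types moved with the clones. The 8 epithelial markers summed to 144 to 258 FPKM in the clone libraries and 96.0 to 124 FPKM in parental libraries, with KRT14 at 1.57 to 26.2 FPKM in clones and 0.285 to 4.09 FPKM in parental cells, while CDH1, EPCAM, ESRP1, KRT19 and KRT5 never reached 1 FPKM. The 8 melanocyte markers summed to 152 to 249 FPKM in clones and 325 to 416 FPKM in parental cells. The 8 myeloid markers summed to 22.5 to 42.3 FPKM in clones and 3.66 to 6.08 FPKM in parental cells, most of it CD33 at 20.5 to 35.0 FPKM in clones against 0.149 to 0.881 FPKM in parental cells, with PTPRC, SPI1, CSF3R and MPO never at 1 FPKM. The fibroblast and endothelial markers summed to 4.48 to 11.4 FPKM in clones and 2.33 to 2.82 FPKM in parental cells, with KDR at 3.71 to 8.22 FPKM in clones and 0.494 to 1.52 FPKM in parental cells, and COL1A1 and VWF never at 1 FPKM. The part of these markers in the integrin and laminin differences was not tested.

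The lists of genes that work beside these receptors each held genes that rose and genes that fell in both clones. Of 8 hemidesmosome genes listed as partners of alpha 6 beta 4, 6 were tested in A375 cells. In DMSO 2 were higher and 1 lower in clone 1, and 3 higher and 1 lower in clone 4. Untreated, 5 were higher and 1 lower in clone 1, and 4 higher and 1 lower in clone 4. Beside this and the following lists, in DMSO 11.7% of all genes were higher and 13.5% lower in clone 1, and 15.4% and 16% in clone 4. Untreated, 17.1% of all genes were higher and 31% lower in clone 1, and 20.7% and 30.4% in clone 4. The collagen COL17A1 averaged 2.34 ± 0.00587 FPKM in clone 1 and 2.15 ± 0.403 FPKM in clone 4 in DMSO, against 0.0862 ± 0.0357 FPKM in parental cells (SD, n = 2; 1.62, adjusted p = 6.75e-08 and 1.53, adjusted p = 9.52e-08, limma). The keratin KRT14, also an epithelial marker above, rose by 1.47 (adjusted p = 8.41e-06) in clone 1 and 2.48 (adjusted p = 4.73e-08) in clone 4. The tetraspanin CD151, which binds alpha 3 and alpha 6 integrins, rose by 1.28 in untreated clone 4 (adjusted p = 3.01e-05) and by 0.81 in untreated clone 1 (adjusted p = 0.00132). LAD1, an anchoring filament protein, went the other way, at 0.0485 ± 0.0510 FPKM in clone 1 and 0.0843 ± 0.0561 FPKM in clone 4 in DMSO, against 12.1 ± 1.08 FPKM in parental cells (-3.64, adjusted p = 2.65e-11 and -3.59, adjusted p = 2.67e-11).

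Of 13 other basement membrane genes, 10 were tested; 2 rose and 2 fell in clone 1 and 3 rose and 5 fell in clone 4 in DMSO, and 2 rose and 6 fell in each clone untreated. NID1, which links laminin to collagen IV, fell by -1.61 (adjusted p = 4.45e-05) in clone 1 and -1.99 (adjusted p = 5.04e-06) in clone 4 in DMSO. COL4A1 averaged 18.6 ± 0.371 FPKM in clone 1 and 5.66 ± 0.341 FPKM in clone 4 untreated, against 111 ± 0.835 FPKM in parental cells (SD, n = 2; -2.52, adjusted p = 4.04e-07 and -4.08, adjusted p = 3.44e-09, limma). Of 15 integrin ligands outside the laminins, 9 were tested; 1 rose and 5 fell in clone 1 and 1 rose and 6 fell in clone 4 in DMSO, and 1 rose and 6 fell in each untreated. The riser was THBS1, thrombospondin 1, at 377 ± 11.97 FPKM in clone 1 and 300.3 ± 90.9 FPKM in clone 4 in DMSO, against 35.0 ± 7.27 FPKM in parental cells (3.41, adjusted p = 1.82e-08 and 3.05, adjusted p = 3.93e-08). ICAM1, a ligand of beta 2 integrins, fell by -1.59 (adjusted p = 2.65e-08) and -0.55 (adjusted p = 0.000351) in DMSO. Of 22 integrin activators and focal adhesion genes, 19 were tested; 6 rose and 3 fell in clone 1 and 5 rose and 3 fell in clone 4 in DMSO, and 5 rose and 6 fell in clone 1 and 8 rose and 6 fell in clone 4 untreated. FERMT1, the kindlin of epithelia, rose by 1.35 (adjusted p = 3.64e-07) and 0.95 (adjusted p = 7.74e-06) in DMSO, and the adaptor TNS3 fell by -0.57 (adjusted p = 0.00616) and -1.74 (adjusted p = 4.23e-07).

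With CPI203 for 6 h, the share of members called in the A375 clones was near that of all genes. In clone 1, 1 rose and 4 fell, with 22% of all genes called, 8.41% higher and 13.6% lower. In clone 4, 1 rose and 5 fell, with 23.6% of genes called, 8.86% higher and 14.8% lower. In parental cells no member rose and 4 fell, with 36.4% of genes called, 15% higher and 21.4% lower. The median change of the members was -0.15, -0.12 and -0.13, against -0.03, -0.05 and -0.04 over all genes. LAMB3 fell in all 3 populations. It stood at 2.94 and 3.23 FPKM with CPI203 and 6.89 and 7.36 FPKM with DMSO in clone 1, and at 3.67 and 4.27 FPKM with CPI203 and 6.15 and 8.67 FPKM with DMSO in clone 4. In parental cells it stood at 3.22 FPKM in both CPI203 libraries and 7.10 and 8.02 FPKM with DMSO. CPI203 and DMSO libraries did not overlap in any of the 3. The fall was -0.99 ± 0.13 in clone 1 (adjusted p = 0.000171), -0.74 ± 0.13 in clone 4 (adjusted p = 0.00126) and -1.02 ± 0.13 in parental cells (adjusted p = 5.67e-05). With no filter on low values, a fit that also takes in rows at 0 in every library, all 3 calls were lost (adjusted p = 0.262, 0.481 and 0.0844). With only the compared libraries that in clone 4 was lost (adjusted p = 0.216). The first of its 3 listed promoters, printed above, holds the AP-1 letters and the others do not. LAMA3, the other member with these letters, averaged under 1 FPKM with CPI203 and with DMSO and was not called in any of the 3 populations. Its CPI203 mean was 0.605 of the DMSO mean in clone 1, 0.610 in clone 4 and 0.730 in parental cells. The part of these letters in the changes was not tested.

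ITGB4 fell with CPI203 in both clones and remained far above its parental level. It stood at 33.4 and 31.5 FPKM with CPI203 in clone 1, against 65.5 and 72.7 FPKM with DMSO. In clone 4 it stood at 30.2 and 38.0 FPKM with CPI203, against 109 and 81.6 FPKM with DMSO. In parental cells it stood at 0.239 and 0.613 FPKM with CPI203, against 0.643 and 0.489 FPKM with DMSO. CPI203 and DMSO libraries overlapped in parental cells and did not in either clone. The fall was -1.07 ± 0.16 in clone 1 (adjusted p = 0.00059) and -1.45 ± 0.16 in clone 4 (adjusted p = 6.86e-05), and the mean was 0.470 and 0.357 of the DMSO mean. These calls were lost with no filter (adjusted p = 0.279 and 0.0782), and that in clone 4 with only the compared libraries (adjusted p = 0.0740); in parental cells the change was -0.15 ± 0.16 (adjusted p = 0.522). The difference of the change between clone and parental cells was -1.31 ± 0.23 for clone 4 (adjusted p = 0.00903), lost with a pseudocount of 0.1 (-1.05, adjusted p = 0.357), and -0.92 ± 0.23 for clone 1 (adjusted p = 0.0731). Adding 1 to FPKM compresses changes of genes under 1 FPKM, as ITGB4 was in parental cells.

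ITGA3 was called higher with CPI203 in both clones, at 225 and 221 FPKM against 171 and 177 FPKM in clone 1 (0.36 ± 0.09, adjusted p = 0.0117) and 195 and 226 FPKM against 166 and 169.8 FPKM in clone 4 (0.32 ± 0.09, adjusted p = 0.0179). The clone 1 call was lost without any 1 of the 4 libraries (adjusted p = 0.0507 to 0.0808), and the clone 4 call without clone 4 DMSO replicate 1 (0.31, adjusted p = 0.0512) or clone 4 CPI203 replicate 2 (0.22, adjusted p = 0.118). ITGA3 stood at 102 and 109 FPKM with CPI203 and 111 and 104 FPKM with DMSO in parental cells, where it was not called (adjusted p = 0.821). ITGA5 fell in parental cells, at 40.1 and 41.9 FPKM with CPI203 against 65.4 and 60.9 FPKM with DMSO (-0.61 ± 0.09, adjusted p = 0.000249). In clone 4 it fell by -0.36 ± 0.09 (adjusted p = 0.014), at 39.5 and 45.9 FPKM with CPI203 against 59.1 and 51.0 FPKM with DMSO, a call lost without clone 4 DMSO replicate 1 (-0.26, adjusted p = 0.0913) or clone 4 CPI203 replicate 1 (-0.25, adjusted p = 0.133). LAMB1 fell in clone 4, at 85.2 and 77.7 FPKM against 111 and 118 FPKM (-0.49 ± 0.09, adjusted p = 0.0018).

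The subunits ITGA9 and ITGA10 also moved at low levels. ITGA9 fell in parental cells, at 1.93 and 2.07 FPKM with CPI203 against 3.51 and 4.90 FPKM with DMSO (-0.78 ± 0.11, adjusted p = 0.000115). The difference of that change was 0.85 ± 0.15 for clone 1 (adjusted p = 0.011) and 0.75 ± 0.15 for clone 4 (adjusted p = 0.02). ITGA9 was at most 0.114 FPKM in the clones and had no room to fall on this scale, and with a pseudocount of 0.1 neither difference was called (1.42, adjusted p = 0.104, and 0.75, adjusted p = 0.569). The mean with CPI203 was 1.92 of the DMSO mean in clone 1, 0.141 in clone 4 and 0.476 in parental cells. The clone 1 difference was lost without parental CPI203 replicate 1 (0.81, adjusted p = 0.0618), clone 1 DMSO replicate 1 (0.84, adjusted p = 0.0534) or clone 1 CPI203 replicate 1 (0.83, adjusted p = 0.0613), and the clone 4 difference without any 1 of 5 libraries (adjusted p = 0.0581 to 0.0947). In all, 1 member had a higher difference in clone 1, where 1.91% of genes were called, 1.39% higher and 0.52% lower. In clone 4, 1 was higher and 2 lower, where 2.29% of genes were called, 1.59% higher and 0.697% lower. ITGA10 fell by -0.53 ± 0.11 in clone 1 (adjusted p = 0.00421) and by -0.43 ± 0.11 in parental cells (adjusted p = 0.00927), the second lost without parental DMSO replicate 2 (-0.32, adjusted p = 0.0707) or parental CPI203 replicate 2 (-0.40, adjusted p = 0.0614).

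These CPI203 counts depended on the libraries that stand apart. Without the 3 of them, 2 members rose and 10 fell in clone 1, with 42.8% of genes called. Clone 4 then had 1 library with CPI203 and 1 with DMSO, and parental cells 1 with DMSO, so calls there are not counted. The ITGB1 change was then 0.25 in clone 1 (adjusted p = 0.00416), 0.32 in clone 4 and 0.22 in parental cells. Those of ITGA4 and ITGA6 were negative in all 3 populations. The changes of ITGA1 and ITGB3 in parental cells were then -0.49 and -0.34, where with all libraries they were not called at 0.12 and 0.09. LAMB3 and ITGB4 kept their calls in clone 1. In clone 4 the changes of LAMB3 and ITGB4, and in parental cells that of LAMB3, stayed negative. More members were called in parental cells without parental DMSO replicate 2 alone, and in clone 4 without clone 4 DMSO replicate 2 alone. The share of all genes called rose too in both, and each fit leaves 1 library in that group.

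Of the genes beside them, TNS3 fell with CPI203 by -1.74 in clone 1 (adjusted p = 4.43e-06), -1.31 in clone 4 (adjusted p = 3.04e-05) and -1.90 in parental cells (adjusted p = 4.47e-07). The kinase SRC fell by -1.33 (adjusted p = 4.93e-05), -1.34 (adjusted p = 4.62e-05) and -1.13 (adjusted p = 6e-05). Over the 19 focal adhesion genes, 1 rose and 3 fell in clone 1, 2 rose and 4 fell in clone 4, and 2 rose and 4 fell in parental cells. Of all genes, 22%, 23.6% and 36.4% were called in clone 1, clone 4 and parental cells. LAD1 was at 0.990 ± 0.109 FPKM with CPI203 and 12.1 ± 1.08 FPKM with DMSO in parental cells (SD, n = 2; -2.72, adjusted p = 1.25e-09, limma), and it was the hemidesmosome gene that fell there. In the clones PLEC, the plakin that beta 4 binds, was called higher (0.95, adjusted p = 0.0338 and 1.02, adjusted p = 0.0221). It was the only riser of the 6 hemidesmosome genes tested in either clone, and 1 of the 6 fell in each.

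**Figure D4:**
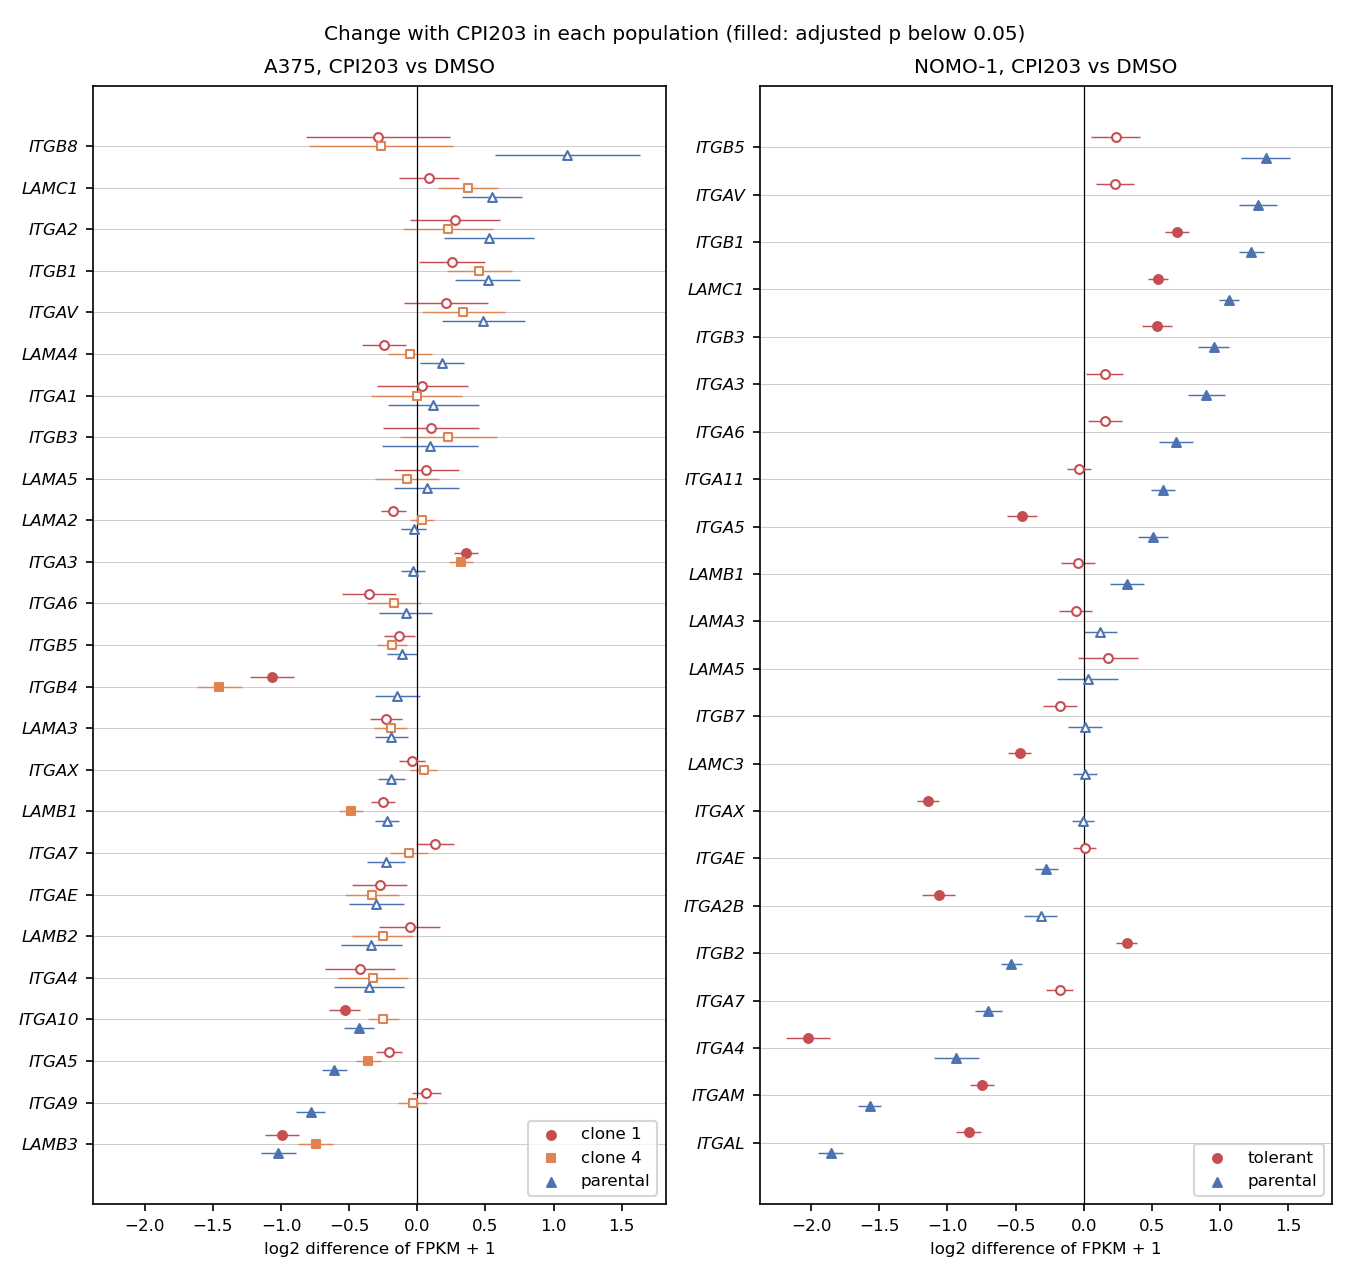
Log2 change of FPKM + 1 with its standard error for CPI203 against DMSO, on the left in A375 clone 1, clone 4 and parental cells after 6 h and on the right in tolerant and parental NOMO-1 cells after 24 h; filled symbols passed an adjusted p below 0.05. LAMB3 is near -1 in all A375 populations and ITGB4 falls in the clones, while in NOMO-1 cells ITGAL falls by -1.85 in parental and -0.85 in tolerant cells.

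In NOMO-1 cells, the leukocyte integrins were lower in tolerant than in parental cells. Of 7 listed leukocyte subunits 6 were tested, and in DMSO all 6 fell. Over the 22 members tested, 8 rose and 12 fell, with 64.4% of all genes called, 28.2% higher and 36.2% lower. The members' median difference was -0.29, against -0.07 over all genes; after quantile normalization the median over all genes was 0.04, and 18 members passed, 8 of them higher. ITGAL, the alpha subunit of LFA-1 (ENSG00000005844, hg19 chr16 30483978 to 30534506), stood at 19.2 and 21.5 FPKM in tolerant cells, against 126 and 120.1 FPKM in parental cells, with no overlap (-2.54 ± 0.09, adjusted p = 3.19e-08). ITGB2, the beta subunit it needs (ENSG00000160255, hg19 chr21 46305867 to 46351904), stood at 47.2 and 46.1 FPKM in tolerant cells, against 177 and 169 FPKM in parental cells (-1.87 ± 0.08, adjusted p = 6.52e-08). ITGB7, the beta subunit of the gut homing receptor, stood at 2.79 and 3.68 FPKM in tolerant cells, against 34.8 and 30.2 FPKM in parental cells (-2.99 ± 0.13, adjusted p = 7.58e-08).

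ITGAM, the alpha subunit of the complement receptor Mac-1, differed far less, at 59.2 and 59.6 FPKM in tolerant cells against 72.9 and 68.5 FPKM in parental cells (-0.25 ± 0.09, adjusted p = 0.0319). That call was lost without parental DMSO replicate 1 (-0.20, adjusted p = 0.0927), tolerant DMSO replicate 1 (-0.24, adjusted p = 0.127) or tolerant DMSO replicate 2 (-0.25, adjusted p = 0.115). The ratio of ITGAM to ITGB2 FPKM was 1.25 and 1.29 in tolerant DMSO libraries and 0.411 and 0.405 in parental ones, while that of ITGAL to ITGB2 was 0.405 and 0.466 in tolerant and 0.709 in both parental libraries. ITGAX stood at 14.6 and 14.2 FPKM in tolerant cells, against 21.99 and 20.7 FPKM in parental cells (-0.54 ± 0.08, adjusted p = 0.000319). ITGAE stood at 34.4 and 32.8 FPKM in tolerant cells, against 59.1 and 53.4 FPKM in parental cells (-0.73 ± 0.08, adjusted p = 6.07e-05). Of the summed beta subunit FPKM, 91.1 and 92.7 in tolerant and 250.05 and 257 in parental DMSO libraries, ITGB2 took 50.6% and 51.0% in tolerant and 67.7% and 68.8% in parental cells, and ITGB1 took 38.6% and 40.3% in tolerant and 14.3% and 17.5% in parental cells. ITGB1 itself was not called, at 37.3 and 35.2 FPKM in tolerant and 36.9 and 43.8 FPKM in parental cells (-0.15 ± 0.09, adjusted p = 0.188).

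Other integrins were higher in the tolerant cells. ITGA6 (ENSG00000091409, hg19 chr2 173292081 to 173371181) stood at 23.4 and 25.3 FPKM in tolerant cells, against 1.68 and 2.09 FPKM in parental cells (3.14 ± 0.12, adjusted p = 5.18e-08), 12.9 times the parental mean. Its partner for laminin binding in blood cells is beta 1, and ITGB4 was not above 1.36 FPKM in any NOMO-1 library. ITGB3 stood at 3.44 and 4.26 FPKM in tolerant cells, against 0.0514 and 0.0992 FPKM in parental cells (2.17 ± 0.11, adjusted p = 2.96e-07). ITGAV rose with it, at 6.03 and 7.12 FPKM in tolerant cells against 2.64 and 3.11 FPKM in parental cells (0.97 ± 0.14, adjusted p = 0.000237). ITGA4, the alpha subunit of VLA-4, stood at 73.3 and 80.9 FPKM in tolerant cells, against 34.8 and 52.3 FPKM in parental cells (0.84 ± 0.16, adjusted p = 0.00166). ITGA5 was higher at 54.1 and 49.7 FPKM in tolerant cells against 41.1 and 37.0 FPKM in parental cells (0.40 ± 0.11, adjusted p = 0.0105), a call lost without tolerant DMSO replicate 1 (0.34, adjusted p = 0.0761). None of these 5 genes overlapped between the groups, a count not made over all genes.

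ITGA7, ITGB5 and ITGA3 fell. ITGA7 (ENSG00000135424, hg19 chr12 56078351 to 56109827) stood at 0.4005 and 0.4998 FPKM in tolerant cells, against 32.4 and 31.1 FPKM in parental cells (-4.50 ± 0.10, adjusted p = 2.71e-09). ITGA7 reached 1 FPKM in parental NOMO-1 libraries alone, as did ITGA11 and LAMB1, and LAMC3 in tolerant ones alone, so each could enter the test only through the group where it is high. ITGB5 stood at 0.552 and 0.904 FPKM in tolerant cells, against 7.47 and 6.06 FPKM in parental cells (-2.17 ± 0.18, adjusted p = 6.06e-06). ITGA3 stood at 1.17 and 0.788 FPKM in tolerant cells, against 2.83 and 2.25 FPKM in parental cells (-0.84 ± 0.14, adjusted p = 0.000504). In ITGA3, ITGB3, ITGA4 and ITGA7 the tolerant against parental values can be set beside the A375 clones above, where ITGA3 rose, ITGB3 and ITGA4 fell and ITGA7 fell; the lines differ in time and were not tested against each other.

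The laminin chains of NOMO-1 cells are few, and LAMC1 led them. LAMC1 (ENSG00000135862, hg19 chr1 182992594 to 183114727) stood at 57.2 and 54.9 FPKM in tolerant cells, against 6.34 and 6.76 FPKM in parental cells (2.92 ± 0.08, adjusted p = 5.62e-09), 8.56 times the parental mean. No laminin trimer can form from a gamma chain alone, and the alpha chains summed to 1.88 and 3.01 FPKM in tolerant and 5.61 and 6.07 FPKM in parental DMSO libraries. LAMA5 stood at 1.71 and 0.912 FPKM in tolerant cells, against 4.68 and 4.44 FPKM in parental cells (-1.29 ± 0.22, adjusted p = 0.000764). The beta chains summed to 0.549 and 0.630 FPKM in tolerant and 1.76 and 1.80 FPKM in parental DMSO libraries. LAMC3, another gamma chain, stood at 1.12 and 1.19 FPKM in tolerant cells, against 0.0574 and 0.0739 FPKM in parental cells (1.02 ± 0.09, adjusted p = 6.91e-06). LAMB1, ITGA11 and ITGA2B were called at levels of 1.57 FPKM or less in DMSO (-0.51 ± 0.12, adjusted p = 0.00586; -0.33 ± 0.09, adjusted p = 0.00945; and 0.39 ± 0.12, adjusted p = 0.0194). The ITGA11 call was lost without tolerant DMSO replicate 1 (adjusted p = 0.0588) or 2 (adjusted p = 0.0598) or parental DMSO replicate 2 (adjusted p = 0.053), and the ITGA2B call without parental DMSO replicate 2 (0.26, adjusted p = 0.116) or tolerant DMSO replicate 2 (0.29, adjusted p = 0.147).

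**Figure D5:**
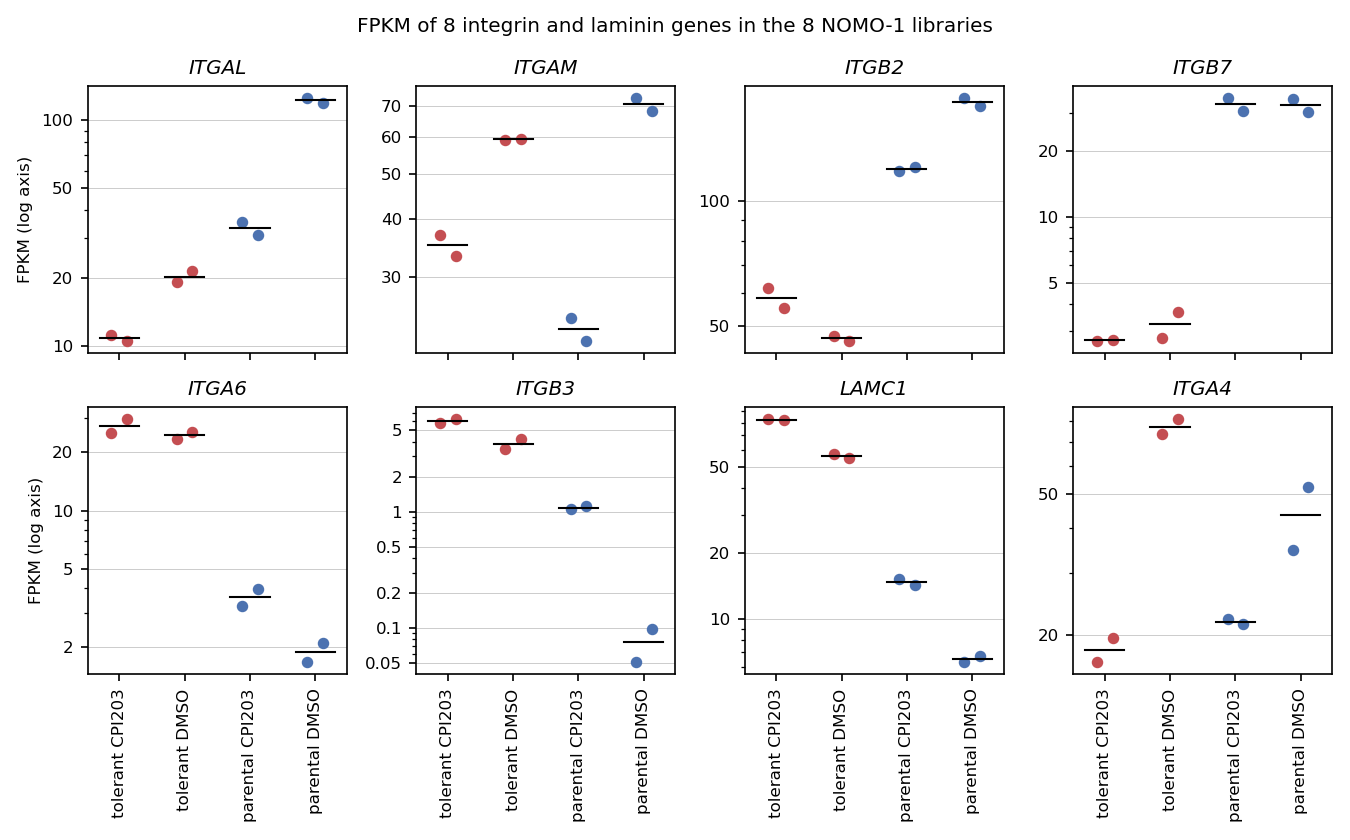
FPKM on a log axis of ITGAL, ITGAM, ITGB2, ITGB7, ITGA6, ITGB3, LAMC1 and ITGA4 in the 8 NOMO-1 libraries, for tolerant and parental cells with CPI203 or DMSO; dots are libraries and lines are means of 2. ITGAL, ITGB2 and ITGB7 are lower and ITGA6, ITGB3 and LAMC1 higher in all tolerant libraries than in any parental library.

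Myeloid markers of the tolerant NOMO-1 cells differed gene by gene. The 8 markers summed to 1685 to 1850 FPKM in tolerant and 1858 to 1878 FPKM in parental cells in DMSO, close in sum, yet PTPRC was at 0.823 to 1.13 FPKM in tolerant and 40.4 to 59.4 FPKM in parental cells. LYZ was at 43.3 to 45.9 FPKM in tolerant and 1438 FPKM in parental cells, and CSF3R at 1065 to 1139 FPKM in tolerant and 109.5 to 116 FPKM in parental cells. The 6 lymphoid markers summed to 89.1 to 93.7 FPKM in tolerant and 11.5 to 14.2 FPKM in parental cells, of which CD3D gave 80.8 to 85.2 FPKM in tolerant cells. CD79A stood at 6.24 to 6.55 FPKM in tolerant and 1.16 to 1.61 FPKM in parental cells, CD3E at 1.26 to 1.65 FPKM in tolerant cells and listed at 0 in parental cells, and CD2 at 0.324 to 0.502 FPKM in tolerant and at most 0.0182 FPKM in parental cells. The 6 platelet and megakaryocyte markers summed to 9.29 to 9.63 FPKM in tolerant and 3.79 to 4.90 FPKM in parental cells. The part of these markers in the integrin differences was not tested. In DMSO, 28.2% of all genes tested were higher and 36.2% lower in tolerant than in parental NOMO-1 cells. Of the 19 focal adhesion genes tested, 2 rose and 14 fell in tolerant cells, with PTK2, focal adhesion kinase, at -1.58 (adjusted p = 9.57e-07) and SRC at -2.10 (adjusted p = 2.19e-06). Of the 7 other ligands tested all fell, FN1 (fibronectin) by -3.93 (adjusted p = 1.68e-08) and SPP1 (osteopontin) by -3.17 (adjusted p = 1.49e-08). Of 6 other basement membrane genes tested 1 rose and 4 fell, NID1 by -2.48 (adjusted p = 2.56e-07).

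With CPI203 for 24 h, 3 of the 6 leukocyte subunits tested fell and 1 rose in tolerant NOMO-1 cells, and 4 fell in parental cells. Of 22 members, 4 rose and 7 fell in tolerant cells, with 39.2% of genes called, 18.4% higher and 20.7% lower. In parental cells 10 rose and 6 fell, with 60% called, 27% higher and 33% lower. The members' median change was -0.04 in tolerant and 0.07 in parental cells, against 0.00 and -0.05 over all genes. ITGAL stood at 11.1 and 10.6 FPKM with CPI203 and 19.2 and 21.5 FPKM with DMSO in tolerant cells, and at 35.5 and 31.1 FPKM with CPI203 and 126 and 120.1 FPKM with DMSO in parental cells. It fell by -0.85 ± 0.09 in tolerant (adjusted p = 0.000129) and -1.85 ± 0.09 in parental cells (adjusted p = 6.97e-07), and the difference was 1.01 ± 0.13 (adjusted p = 0.000577). ITGAM stood at 37.0 and 33.2 FPKM with CPI203 and 59.2 and 59.6 FPKM with DMSO in tolerant cells, and at 24.4 and 21.9 FPKM with CPI203 and 72.9 and 68.5 FPKM with DMSO in parental cells. Its fall was -0.74 ± 0.09 in tolerant (adjusted p = 0.000185) and -1.57 ± 0.09 in parental cells (adjusted p = 1.21e-06), with a difference of 0.83 ± 0.12 (adjusted p = 0.00117). CPI203 and DMSO libraries did not overlap for ITGAL or ITGAM in either population.

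ITGB2 and ITGAX went separate ways in the tolerant and the parental cells. ITGB2 was called higher with CPI203 in tolerant cells, at 61.6 and 55.2 FPKM against 47.2 and 46.1 FPKM with DMSO (0.32 ± 0.08, adjusted p = 0.0102). In parental cells it fell, at 118 and 121 FPKM with CPI203 against 177 and 169 FPKM with DMSO (-0.53 ± 0.08, adjusted p = 0.000334). The tolerant call was lost without tolerant DMSO replicate 1 (0.33, adjusted p = 0.059), tolerant DMSO replicate 2 (0.30, adjusted p = 0.0835) or tolerant CPI203 replicate 1 (0.24, adjusted p = 0.0798), while the difference between populations was 0.85 ± 0.11 (adjusted p = 0.000548). ITGAX fell in tolerant cells, at 6.04 and 5.94 FPKM with CPI203 against 14.6 and 14.2 FPKM with DMSO (-1.14 ± 0.08, adjusted p = 9.16e-06), and was not called in parental cells, at 21.8 and 20.8 FPKM against 21.99 and 20.7 FPKM (adjusted p = 0.965). The difference was -1.14 ± 0.11 (adjusted p = 0.000145). ITGB7 was called in neither, at 2.72 and 2.74 FPKM with CPI203 in tolerant cells and 35.0 and 30.6 FPKM with CPI203 in parental cells. ITGAE fell in parental cells, at 48.7 and 43.9 FPKM with CPI203 against 59.1 and 53.4 FPKM with DMSO (-0.28 ± 0.08, adjusted p = 0.0191), a call lost without parental DMSO replicate 1 (-0.20, adjusted p = 0.0662) or parental CPI203 replicate 2 (-0.20, adjusted p = 0.155).

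ITGA4 fell in both populations. It stood at 16.9 and 19.6 FPKM with CPI203 and 73.3 and 80.9 FPKM with DMSO in tolerant cells (-2.02 ± 0.16, adjusted p = 2.17e-05), and at 22.2 and 21.5 FPKM with CPI203 and 34.8 and 52.3 FPKM with DMSO in parental cells (-0.93 ± 0.16, adjusted p = 0.00107). The difference of -1.09 ± 0.23 passed (adjusted p = 0.00742). ITGB1 rose in both, at 57.9 and 59.7 FPKM with CPI203 against 37.3 and 35.2 FPKM with DMSO in tolerant cells (0.68 ± 0.09, adjusted p = 0.000394) and at 93.9 and 97.4 FPKM against 36.9 and 43.8 FPKM in parental cells (1.23 ± 0.09, adjusted p = 6.29e-06). The difference was -0.55 ± 0.13 (adjusted p = 0.0117), a call lost in at least 1 fit that left out 1 library. LAMC1 likewise rose in both, at 82.8 and 81.8 FPKM against 57.2 and 54.9 FPKM in tolerant cells (0.55 ± 0.08, adjusted p = 0.000501) and at 15.2 and 14.4 FPKM against 6.34 and 6.76 FPKM in parental cells (1.07 ± 0.08, adjusted p = 5.13e-06). ITGB3 rose by 0.54 ± 0.11 in tolerant (adjusted p = 0.00486) and 0.95 ± 0.11 in parental cells (adjusted p = 9.99e-05), the first lost without tolerant DMSO replicate 1 (0.42, adjusted p = 0.0547). None of ITGA4, ITGB1 and LAMC1 overlapped between CPI203 and DMSO in either population, a count not made over all genes.

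Further members rose with CPI203 in parental NOMO-1 cells. ITGAV stood at 7.001 and 8.81 FPKM with CPI203 and 6.03 and 7.12 FPKM with DMSO in tolerant cells, where it was not called. In parental cells it stood at 7.72 and 9.09 FPKM with CPI203 and 2.64 and 3.11 FPKM with DMSO (1.28 ± 0.14, adjusted p = 5.75e-05), and the difference was -1.05 ± 0.19 (adjusted p = 0.00384). ITGB5 was at most 1.37 FPKM in tolerant cells, and stood at 17.0 and 20.2 FPKM with CPI203 and 7.47 and 6.06 FPKM with DMSO in parental cells (1.34 ± 0.18, adjusted p = 0.000214). Its difference of -1.10 ± 0.25 (adjusted p = 0.0104) was lost with a pseudocount of 0.1 (-1.003, adjusted p = 0.0976). ITGA5 fell in tolerant cells, at 39.8 and 35.6 FPKM with CPI203 against 54.1 and 49.7 FPKM with DMSO (-0.45 ± 0.11, adjusted p = 0.0105), and rose in parental cells, at 61.7 and 50.8 FPKM with CPI203 against 41.1 and 37.0 FPKM with DMSO (0.51 ± 0.11, adjusted p = 0.00344). The tolerant ITGA5 call was lost without tolerant DMSO replicate 1 (-0.39, adjusted p = 0.0837) or tolerant CPI203 replicate 2 (-0.37, adjusted p = 0.0752), and the difference was -0.96 ± 0.16 (adjusted p = 0.00192). ITGA3 stood at 1.27 and 1.11 FPKM with CPI203 in tolerant cells, and rose in parental cells, at 5.19 and 5.98 FPKM with CPI203 against 2.83 and 2.25 FPKM with DMSO (0.90 ± 0.14, adjusted p = 0.000433). The ITGA3 difference of -0.75 ± 0.19 (adjusted p = 0.0171) was lost with a pseudocount of 0.1 (-0.83, adjusted p = 0.0657). ITGA6 stood at 25.1 and 29.5 FPKM with CPI203 in tolerant cells, and rose in parental cells, at 3.25 and 3.96 FPKM with CPI203 against 1.68 and 2.09 FPKM with DMSO (0.68 ± 0.12, adjusted p = 0.00136); its difference of -0.52 ± 0.17 was not called (adjusted p = 0.0502). ITGA7 fell in parental cells, at 19.3 and 19.0 FPKM with CPI203 against 32.4 and 31.1 FPKM with DMSO (-0.70 ± 0.10, adjusted p = 0.000281), 0.603 of the DMSO mean. In tolerant cells, where it lay under 1 FPKM, its CPI203 mean was 0.632 of the DMSO mean, and the difference of 0.52 (adjusted p = 0.0194) was lost with a pseudocount of 0.1 (0.20, adjusted p = 0.583). In all, 4 of 22 members had a higher and 11 a lower difference of the CPI203 change between tolerant and parental cells, with 31.8% of genes called, 16.9% higher and 14.9% lower; the 2 changes share no library. Leaving out tolerant DMSO replicate 1 left 7 members called in tolerant cells instead of 11. FERMT3, the kindlin that blood cells need for integrin activation, was at 8.71 ± 0.421 FPKM with CPI203 and 41.3 ± 2.20 FPKM with DMSO in tolerant cells (SD, n = 2, -2.12, adjusted p = 6.32e-07, limma). Of the 19 focal adhesion genes tested, 2 rose and 7 fell with CPI203 in tolerant cells, and 6 rose and 8 fell in parental cells. Of all genes, 39.2% and 60% were called there.

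Some members share their place in the genome with other genes, and the strandedness of the libraries is not given in the sources used here, so reads from opposite strands cannot be told apart. GALK1 lies opposite ITGB4 and stood at 10.6 to 22.3 FPKM in the A375 clones and 6.35 to 16.3 FPKM in parental cells. Its part in the ITGB4 value was not tested. PELO lies within ITGA1 on the same strand, at 14.2 to 19.1 FPKM in clones and 19.9 to 27.1 FPKM in parental cells. METTL7B and BLOC1S1 lie opposite ITGA7 and were also lower in tolerant NOMO-1 cells in DMSO, at 3.68 and 2.82 FPKM against 23.6 and 19.6 FPKM in parental cells for METTL7B, and 30.6 and 27.3 FPKM against 93.1 and 78.9 FPKM for BLOC1S1. Their part in the ITGA7 value was not tested. ITGB2-AS1, opposite ITGB2, stood at 0.125 and 0.102 FPKM in tolerant and 7.68 and 6.71 FPKM in parental NOMO-1 cells in DMSO. ITGAM and ITGAX are 22.2 kb apart on hg19 chromosome 16, and with CPI203 in parental NOMO-1 cells ITGAM fell while ITGAX was not called.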

How the data were processed

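Gene expression was measured by RNA sequencing in 26 libraries, 2 per group. According to the submitters' processing notes, the authors aligned reads to hg19 with TopHat 1.4.1 and estimated FPKM with Cufflinks; per the labels' protocols, RNA came from TRIzol or RNeasy, without saying which for which library. Which Cufflinks version, annotation release or strandedness was used is not given in those sources. The deposited FPKM were transformed as log2(FPKM + 1), and genes at 1 FPKM or more in 2 libraries of a line were kept (16935 in A375, 16753 in NOMO-1). Group means were fitted with limma 3.58.1 (trend and robust options) in R 4.3.3, to all 18 A375 and, separately, all 8 NOMO-1 libraries; tests were two-sided and passed at an adjusted p below 0.05 over all genes. The model was tested on simulated data. The FPKM table holds no counts, so counting error was not computed. Members, role groups, partner lists and markers were chosen with earlier results of these data known, and every member could be named, though 1 that is counted is not reported here; of partner genes, up to 4 with the smallest adjusted p per list and comparison were eligible. Alternatives were a pseudocount of 0.1, no filter, only genes above 0, quantile normalization, only the compared libraries, the replicate number as a block, and leaving out each library; leaving out 3 libraries that stand apart was also run. Promoters are RefSeq sequences on GRCh38.p14, and gene coordinates are hg19 from the deposited table.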

Additional observations from a re-analysis of the deposited data

Results flagged for a closer look

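Members named below differed in their CPI203 change between tolerant and parental cells, by the interaction term in limma with an adjusted p below 0.05; each value is the tolerant minus the parental log2 change. In A375 cells they include ITGA9 in clone 1 (0.85), and ITGA9 (0.75) and ITGB4 (-1.31) in clone 4. ITGB4 lies under 1 FPKM in parental cells and ITGA9 under 1 FPKM in the clones, so that in each case 1 of the 2 changes is of a gene near 0, and none was called with a pseudocount of 0.1. In NOMO-1 cells the leukocyte subunits ITGAL (1.01), ITGAM (0.83) and ITGB2 (0.85) had a higher difference, as did ITGA7 (0.52), which lies under 1 FPKM in tolerant cells and was not called with a pseudocount of 0.1, and ITGAX a lower one (-1.14). The other alpha subunits with a lower difference were ITGA4 (-1.09), ITGAV (-1.05), ITGA5 (-0.96), ITGA2B (-0.75), ITGA3 (-0.75) and ITGA11 (-0.62). The same held for the beta subunits ITGB5 (-1.10) and ITGB1 (-0.55) and the laminin chains LAMC1 (-0.52) and LAMC3 (-0.48). The differences of ITGA2B, ITGA3, ITGA7, ITGB1 and LAMC3 lost their call in at least 1 fit that left out 1 library. Those of ITGB5 and ITGA3 were not called with a pseudocount of 0.1. For ITGA5 and ITGB2 the change had opposite signs in tolerant and parental cells.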

How the results depend on the processing

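The number of members passing in limma is given for each setting beside that reported. In clone 1 and clone 4 against parental cells it was 13 and 12 in DMSO and 17 and 18 untreated. With no filter on low values it was 3 and 6 in DMSO and 10 and 10 untreated. Of all genes, that setting called 1.58% and 2.27% in DMSO and 5.41% and 6.02% untreated. With only the compared libraries in the fit it was 7 and 5 in DMSO, with 13.6% and 7.68% of all genes called. For CPI203 in clone 1, clone 4 and parental cells, 5, 6 and 4 passed, and with no filter 0, 0 and 0. With only the compared libraries 13 and 0 passed in clones 1 and 4. Without the 3 libraries that stand apart 12 passed in clone 1, where 42.8% of all genes were called. Of all genes, no filter called 0.0966%, 0.227% and 1.16% for CPI203 in clone 1, clone 4 and parental cells. With genes above 0 FPKM in any library alone, 8.48%, 9.4% and 16.3% were called. Over all member tests of both lines, no filter lost 99 calls and that setting 13. Only the compared libraries called 44% and 0.157% of all genes in clones 1 and 4. For the difference of the CPI203 change, 0.85% and 1.02% of all genes were called with a pseudocount of 0.1, and 0.138% and 0.19% with no filter. Of the members, 1 (clone 1) and 3 (clone 4) passed for that difference as reported. With a pseudocount of 0.1, with no filter or with only the compared libraries 0 and 0 passed. After quantile normalization 2 passed in clone 1, where 1.71% of all genes were called. In NOMO-1, with no filter 13 of 20 passed between tolerant and parental cells, 2 of 11 for CPI203 in tolerant cells and 1 of 15 for the difference. For parental DMSO against untreated cells 12 passed, 2 with no filter and 4 with only the compared libraries. No share of all genes in those settings is set beside these NOMO-1 and parental counts. They are therefore not read as results about the members. Leaving out 1 library gave 10 to 14 and 11 to 15 members in DMSO and 14 to 15 and 14 to 16 untreated for clones 1 and 4, 4 to 4, 5 to 10 and 3 to 8 for CPI203 in clone 1, clone 4 and parental cells, and 0 to 1 and 2 to 3 for the differences. In NOMO-1 it gave 16 to 20, 7 to 10 and 13 to 16 for tolerant against parental cells and CPI203 in tolerant and parental cells, and 10 to 17 for the difference; for parental DMSO against untreated cells it gave 7 to 16. Fits without 1 library leave 1 library in a group, and no share of all genes is set beside their ranges. These too are not read as results about the members. Without the 3 libraries the sign turned for ITGB8 in clone 1 in DMSO (-0.49) and for ITGA1 (-0.49) and ITGB3 (-0.34) with CPI203 in parental cells. Those 3 libraries were picked with earlier results of these data known, and the filter at 0 FPKM and the comparison of DMSO with untreated cells were added after seeing the data. Adding the replicate number as a block gave 12 and 11 members in DMSO, 17 and 18 untreated and 18 for the NOMO-1 difference. With the block, 24.6% and 30.7% of all genes were called in DMSO and 47.2% and 50.4% untreated, for clones 1 and 4. Same-numbered libraries did not deviate together throughout in A375 cells (36 pairs of groups, correlations -0.729 to 0.721, median 0.036, 10 over 0.1). In NOMO-1 cells all 6 pairs had a positive correlation (0.018 to 0.386, median 0.179, 4 over 0.1). The numbers were not taken as pairs in the reported fits, and the block is the setting that allows for them. Depth is not known and limits what can be said of values near 0. The cause of these changes was not tested.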
